A study of Arabidopsis thaliana with 24 samples.

Results

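Leaves of Arabidopsis thaliana that carried H2A.Z with 1 altered tail lysine were compared with leaves whose H2A.Z had 9 altered tail lysines. Both lines lack their own H2A.Z, as given by the labels (an h2a.z null background), and express a modified copy of HTA11, one of the H2A.Z genes. In K>R 3 only residue 13, the third lysine, was changed to arginine. In K>R 1-9 every lysine of the tail, 9 in all, was changed. The comparison takes 12 of the 24 libraries of the series, 6 of each line, chosen by genotype alone. In each line 3 libraries came from leaves painted for 4 h with 10 uM abscisic acid (ABA) and 3 from leaves painted with the mock solution, DMSO in water, and both solutions held 0.01% SilWet L-77 as a wetting agent. Plants were 3 weeks old, and the labels call the replicates biological, so p-values measure the spread between such replicates. The other 12 libraries, WT and Delta28 (HTA11 without its first 28 residues in the same background), serve as reference levels. No library analysed here had unmodified HTA11 in the null background. The sources used here do not name the promoter of the HTA11 copy or the number of transgenic lines behind each genotype. The part of single transgene insertions in the differences was therefore not tested, and the p-values do not measure it.

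H2A.Z is a variant of histone H2A that the SWR1 complex exchanges into nucleosomes, mostly near the start of genes and, in plants, also along the bodies of genes that respond to the environment. Lysines of its N-terminal tail can be acetylated, a mark found at active genes. Arginine keeps the positive charge of lysine but cannot be acetylated in this way. ABA is the hormone of drought and salt stress: its receptors block PP2C phosphatases, which frees SnRK2 kinases to switch on stress genes.

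The positions that separate the lines are shown on the start of the HTA11 coding sequence, taken from RefSeq on TAIR10.1 (AT3G54560, chromosome 3, plus strand). It is the first 28 codons, all in the first coding exon. Lysine codons that a line replaces stand in capitals. The sources do not give the codons used in the transgenes, and the native sequence is printed.
K>R 3: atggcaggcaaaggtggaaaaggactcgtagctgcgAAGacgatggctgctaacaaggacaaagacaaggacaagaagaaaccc
K>R 1-9: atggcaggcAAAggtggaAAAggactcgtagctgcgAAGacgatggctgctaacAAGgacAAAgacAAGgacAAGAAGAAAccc
With the start codon as 1, the lysine codons are numbers 4, 7, 13, 19, 21, 23, 25, 26 and 27. The codon changed in K>R 3 is thus the last of the 3 that lie apart near the start, and the other 6 crowd towards the end of the tail.

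Messenger RNA was measured from its 3′ end (QuantSeq FWD), so 1 read stands for about 1 transcript. Total counts ran from 3244950 to 12850237 in K>R 3 (median 5268290.5) and from 4760806 to 11219920 in K>R 1-9 (median 7753896). The deposited gene models lack 1 end exon, so that minus-strand genes lost the end this assay reads, and 12.6% to 16.5% of counts fell on them. Levels are given as CPM, a gene's count divided by the library total and put on 1 common scale, after TMM scaling. Differences are log2 values, K>R 3 minus K>R 1-9, with their standard error (SE). They come from edgeR's quasi-likelihood test with treatment as a blocking factor, and calls were made where the p adjusted by Benjamini-Hochberg over all 12773 genes tested was under 0.05. In leaf tissue taken whole, fewer cells of a type and less RNA per cell cannot be told apart.

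2 libraries stood apart. On the first principal component (34.4% of the variance of log2 CPM) mock and ABA libraries separated. On the second (16.4%) the K>R 1-9 libraries lay between 6.8 and 54 and 5 of the K>R 3 libraries between -53.8 and -21.4. K>R 3 ABA replicate 3, the deepest of the 12, lay at 25.7, among K>R 1-9. Its mean correlation was 0.946 with the K>R 1-9 ABA libraries and 0.916 with the other K>R 3 ABA libraries. The other library apart, K>R 3 mock replicate 2, had the HTA11 level of the other line, as given next. Results that rest on either are given with and without it. K>R 3 ABA replicate 3 was singled out by its expression, which lies nearer the other line, so leaving it out widens the difference between the lines by construction. Calls gained without it are therefore descriptions and no independent support.

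**Figure D1:**
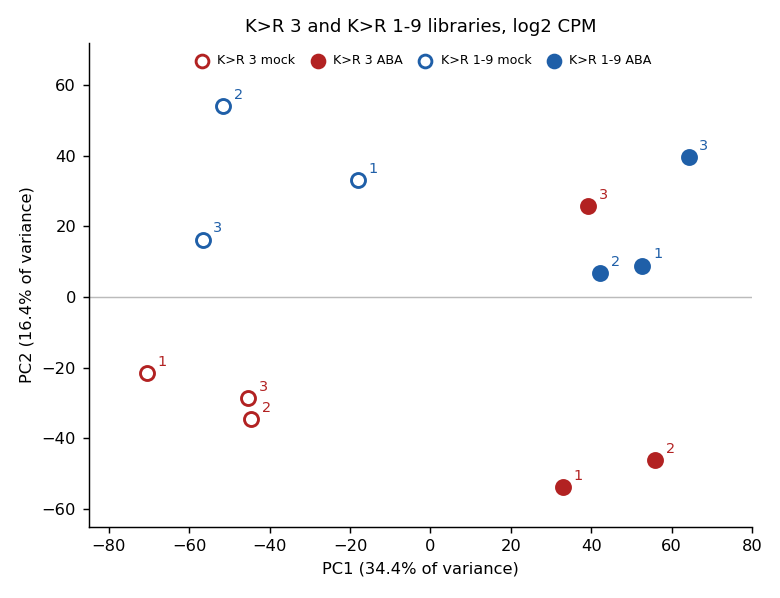
First and second principal components of log2 CPM for the 6 K>R 3 (red) and 6 K>R 1-9 (blue) libraries, with open circles for mock, filled circles for ABA and the replicate number beside each. Mock lies left and ABA right; K>R 3 ABA replicate 3, at 25.7 on the second component, lies among the blue points.

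HTA11 RNA, the transcript both lines were built to supply, was far lower in K>R 3 than in K>R 1-9, except in 1 library. Mock leaves of K>R 3 gave 10.9, 788 and 36 CPM in replicates 1 to 3, and those of K>R 1-9 gave 438, 420 and 491 CPM. In ABA leaves K>R 3 gave 20.1, 5.66 and 22.1 CPM, and K>R 1-9 gave 1010, 518 and 517 CPM. Replicate 2 of K>R 3 mock therefore lay within the range of K>R 1-9, and the other 5 libraries lay below all 6 of K>R 1-9. The mean log2 CPM differed by -4.13 (n = 6 libraries each), with p = 0.02 in an exact two-sided permutation test that exchanged lines within treatment over 400 arrangements. In edgeR, HTA11 was not called with all 12 libraries (log2 difference -3.02, SE 1.21, adjusted p = 0.246). It was called in an edgeR fit of all 24 libraries (-3.05, SE 0.64, adjusted p = 0.0314). Without K>R 3 mock replicate 2 the difference in means was -5.01 and edgeR's -4.88; that library was left out for its HTA11 level, so these are descriptions and no test of HTA11 can be read from them.

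WT leaves gave 4.71 to 9.79 CPM of HTA11 and Delta28 leaves 2.54 to 10.1 CPM, so that 4 of the 5 low K>R 3 libraries lay above all of these and 1 among them. What part of these reads comes from the transgene, from the disrupted gene or from the end of the gene that the construct carries was not tested. In 5 of the 6 K>R 3 libraries HTA11 RNA thus differed from K>R 1-9 along with the number of lysines replaced. K>R 3 mock replicate 2, with HTA11 above all K>R 1-9 mock libraries, lay on the K>R 3 side of the 15 genes called below. Those genes were called with this library labelled K>R 3, so its side was set by the choice of genes. The part of HTA11 level in the differences between the lines was not tested.

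HTA9, another H2A.Z gene, was not called between the lines. Its levels in K>R 3 were 53.9 to 59.1 CPM (mock) and 62.5 to 69.6 CPM (ABA), and K>R 1-9 gave 53.8 to 59.5 and 76.7 to 82.8 CPM. The lines overlapped in mock leaves, and in ABA leaves K>R 3 lay below K>R 1-9. The difference over both treatments was -0.13 (SE 0.12, edgeR adjusted p = 0.625), and WT leaves held 267 to 411 CPM. HTA8, a minus-strand gene, had 0 counts in all 24 libraries, WT included, and so gives no information here.

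**Figure D2:**
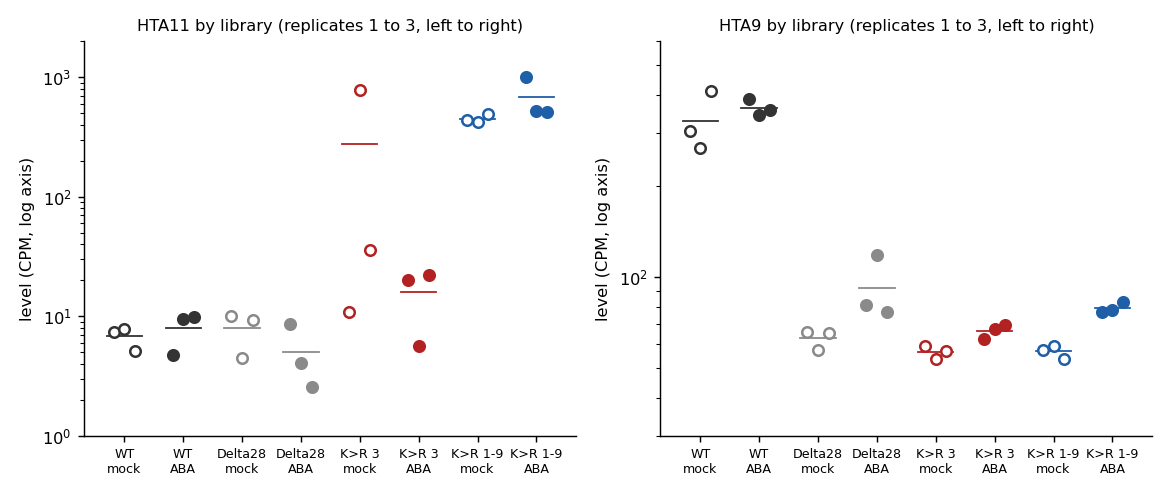
HTA11 (left) and HTA9 (right) in CPM on log axes, 1 point per library, open for mock and filled for ABA, with replicates from left to right and a bar at the mean of 3. HTA11 exceeds 400 CPM in all K>R 1-9 libraries and in K>R 3 mock replicate 2, at 788 CPM, and stays at or below 36 CPM elsewhere.

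Over both treatments 15 of 12773 genes (0.117%) were called between the lines, 13 higher in K>R 3 (0.102%) and 2 lower (0.0157%). They include a nucleoporin, a chloroplast chaperonin, an enzyme of glucosinolate synthesis and a DNA repair partner, all higher in K>R 3. For 14 of the 15 the difference was at least 2-fold, and for all 15 the 3 libraries of 1 line lay wholly above the 3 of the other in mock and again in ABA leaves. Over all genes tested that held for 162 higher (1.27%) and 108 lower (0.846%). At an unadjusted p below 0.05 there were 2059 genes (16.1%), 1145 higher and 914 lower. The median difference of all genes was 0.01.

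The number called depends on which libraries enter. Without K>R 3 ABA replicate 3 it was 1036 of 12994 genes (7.97%), 504 higher and 532 lower, and all 15 genes were among them. It fell to 2 without K>R 1-9 mock replicate 2, K>R 1-9 ABA replicate 1 or K>R 3 mock replicate 3, to 3 without K>R 3 mock replicate 1, and to 4 without K>R 1-9 ABA replicate 2. It was 5 without K>R 3 mock replicate 2, 6 without K>R 1-9 mock replicate 1 or K>R 3 ABA replicate 1, 7 without K>R 3 ABA replicate 2, 8 without K>R 1-9 mock replicate 3 and 12 without K>R 1-9 ABA replicate 3. DESeq2 called 510 genes on the same libraries (3.94%), 288 higher (2.22%) and 222 lower (1.71%), 14 of the 15 among them, and a fit of all 24 libraries called 110 (0.793%), 88 higher (0.634%) and 22 lower (0.159%), with all 15 among them (32 to 1040 called when 1 of the 24 was left out). All 15 kept their direction in every alternative in which they were tested.

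AT2G41620 encodes a component of the nuclear pore of the Nup93/Nic96 family and had the smallest p. It is the 1 called gene on the minus strand, so its counts rest on reads away from its own 3′ end. K>R 3 mock leaves gave 61.2, 77.3 and 50.6 CPM against 16.6, 16.6 and 11.8 CPM in K>R 1-9, and ABA leaves 44.3, 43.4 and 47.9 against 23.2, 18.6 and 13.4 CPM. Every K>R 3 library exceeded every K>R 1-9 library. The difference was 1.67 (SE 0.20, edgeR adjusted p = 0.0131). It was called in each of the 12 fits that left out 1 library, the adjusted p then running from 0.00204 to 0.0444, and also with DESeq2 and with all 24 libraries.

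Cpn60beta2 (AT3G13470), a subunit of the chaperonin that folds Rubisco and other proteins inside chloroplasts, differed by 2.33 (SE 0.31, edgeR adjusted p = 0.0209). Its levels in K>R 3 were 449, 142 and 174 CPM in mock and 56.2, 37.8 and 21 CPM after ABA. The K>R 1-9 levels were 44, 31 and 51.8 CPM and 9.53, 9.15 and 8.95 CPM. ABA leaves were lower than mock leaves in both lines, and the lines were separate within each treatment. In 10 of the 12 fits without 1 library it was called, the adjusted p reaching 0.0585.

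IMS2 (AT5G23020), also named MAM3, catalyses the chain lengthening of methionine that feeds long aliphatic glucosinolates, the mustard oil precursors. It differed by 2.38 (SE 0.33, edgeR adjusted p = 0.0222) and was called in 9 of the 12 fits without 1 library. K>R 3 held 105, 141 and 186 CPM in mock and 81.3, 152 and 75.4 CPM in ABA leaves. K>R 1-9 held 57.7, 11.5 and 21.7 CPM and 15.3, 17.8 and 21 CPM, below every K>R 3 library.

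XRCC4 (AT3G23100), the partner of DNA ligase IV in joining broken DNA ends, was at 17.8, 17.3 and 21.4 CPM in K>R 3 mock leaves and 17.6, 7.55 and 10.4 CPM after ABA. The K>R 1-9 libraries were at 6.64, 2.47 and 5.27 CPM and at 3.34, 5.87 and 2.46 CPM. The lowest K>R 3 value stood above the highest of K>R 1-9 (difference 1.76, SE 0.30, edgeR adjusted p = 0.046). Its call held in 2 of the 12 fits without 1 library.

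ACT3 (AT3G53750), an actin gene whose close paralogue ACT1 could share its reads, gave 29, 29 and 29.2 CPM in K>R 3 mock leaves and 28.6, 23.8 and 25.9 CPM after ABA. K>R 1-9 gave 13.8, 7.19 and 17.6 CPM and 5.6, 6.47 and 5.14 CPM. K>R 3 was higher throughout and varied little, whereas K>R 1-9 was lowest after ABA. The difference was 1.65 (SE 0.24, edgeR adjusted p = 0.0287), called in 7 of the 12 fits without 1 library.

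The other 8 genes called higher had adjusted p in edgeR of 0.0293 to 0.046. Fits without 1 library mostly lost these calls: AT2G41440 was called in 5 of the 12, AT1G53870, AT1G53890, EP3 and GK-1 in 2, and AT2G42710, AT2G42910 and DAR7 in 1. AT2G41440, annotated as an AGAMOUS-like MADS box gene, spanned 7.45 to 13.4 CPM in K>R 3 and 1.51 to 4.77 CPM in K>R 1-9 (difference 1.74). GK-1 (AT2G41880), a guanylate kinase, which makes GDP from GMP, spanned 38.3 to 88.7 and 19.5 to 43.4 CPM (1.08). EP3 (AT3G54420), a chitinase, spanned 46.9 to 119 and 34.2 to 45 CPM (1.08). AT2G42710, annotated as a ribosomal L1p/L10e family protein, and AT2G42910, a phosphoribosyltransferase family gene, differed by 1.22 and 0.77, the latter being the 1 call under 2-fold. AT1G53870 and AT1G53890 encode LURP-one-like proteins and gave nearly the same value in each library (differences 1.46 and 1.47), so their reads may be shared and they count as little more than 1 observation. DAR7 (AT5G66610), a DA1-related gene, was detected at 0.728 to 2.23 CPM in K>R 3 and at 0 to 0.138 CPM in K>R 1-9, below the 5 CPM asked of the genes above. DAR7 passed the filter through K>R 3 alone, so its direction was set in advance.

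Both genes called lower in K>R 3 were on the plus strand and of unlike level. AT1G68570, a transporter of the major facilitator superfamily, was at 73.3, 64.5 and 101 CPM in K>R 3 mock leaves against 287, 190 and 172 CPM in K>R 1-9. After ABA it was at 123, 201 and 197 against 344, 390 and 343 CPM. Within each treatment K>R 3 lay below K>R 1-9, and ABA leaves were the higher ones on average in both lines (difference -1.24, SE 0.19, edgeR adjusted p = 0.0294). AT2G47010, annotated as a calcium/calmodulin-dependent kinase, spanned 1.17 to 5.29 CPM in K>R 3 and 7.56 to 20.7 CPM in K>R 1-9 (difference -2.03, SE 0.35, edgeR adjusted p = 0.046). AT1G68570 was called in 4 and AT2G47010 in 2 of the 12 fits without 1 library. Since only 2 were called, the 5 next by unadjusted p are given as not called: BGLU11, a beta-glucosidase, at -1.06 (edgeR adjusted p = 0.0501), CYP71B5 at -1.26 (0.0523), the MADS box gene AGL16 at -0.70 (0.0663), the heat shock factor HSFB2A at -0.98 (0.0738) and AT5G54980 at -0.94 (0.0752). The lines did not overlap within either treatment in any of these 5 (all genes: 0.846% lower without overlap). The 5 were picked by their small p, so this is no separate support.

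**Figure D3:**
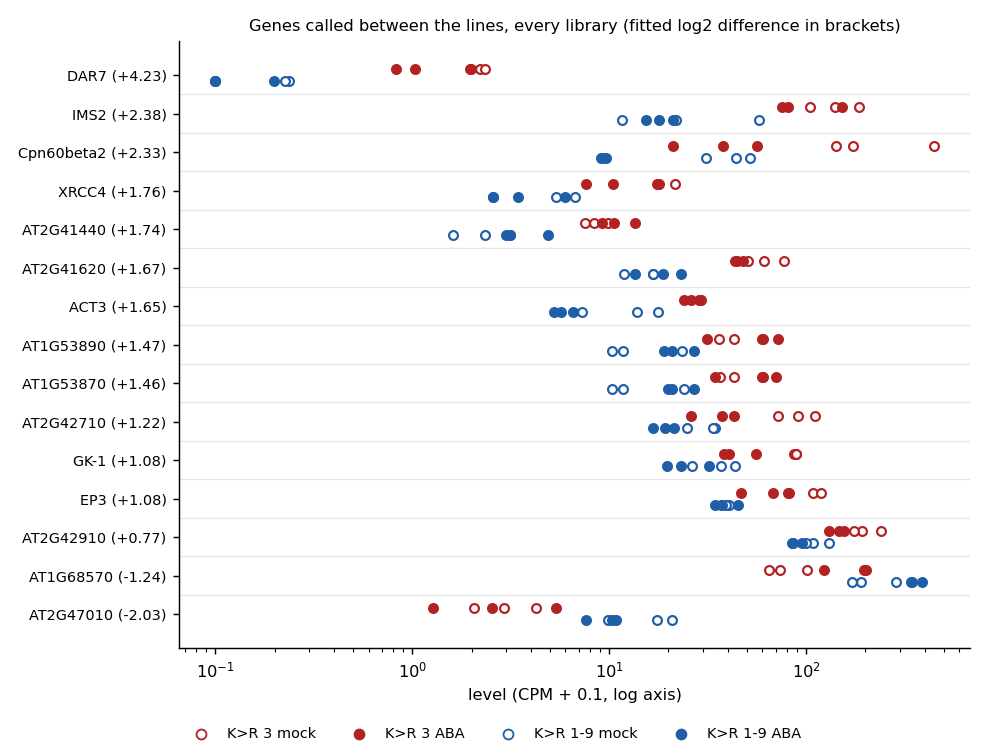
The 15 called genes in every library of K>R 3 (red) and K>R 1-9 (blue), as CPM + 0.1 on a log axis, open circles for mock and filled for ABA, with the log2 difference beside each name. In all 15 rows the lines are separate within each treatment, 13 with K>R 3 on the right.

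WT levels place the called genes, whereas for the photosystem list described below K>R 1-9 was the line nearer to WT. Over mock and ABA group means, K>R 3 was the line nearer to WT for 13 of the 15, against 6766 of all 12773 genes tested, and WT lay between the lines for 12, against 4034 of all genes. The median distance from WT was 0.46 log2 units for K>R 3 and 1.25 for K>R 1-9, against 0.28 and 0.30 over all genes. The 15 were called for a wide gap between the lines. By construction, WT then lies more often inside that gap or far from 1 line, so the values for all genes are no fair measure. K>R 1-9 was the nearer line to Delta28 for 10 of the 15, whereas K>R 3 was nearer for 62 of the 110 genes called with 24 libraries and 6493 of all genes. AT2G41620, for example, spanned 27 to 39.2 CPM in WT leaves and 19 to 35.3 CPM in Delta28 leaves, and XRCC4 spanned 11 to 22.1 CPM in WT leaves and 4.55 to 8.95 CPM in Delta28 leaves. AT2G47010 spanned 1.69 to 5.2 CPM in WT leaves, as in K>R 3, and 9.13 to 21.5 CPM in Delta28, as in K>R 1-9. In the fit of all 24 libraries K>R 3 differed from Delta28 at 458 genes (3.3%) and K>R 1-9 from Delta28 at 615 (4.43%); these counts share the Delta28 libraries and each other's, and the difference between them was not tested. Leaving out 1 library moved the first count to 160 to 1008. Beyond 1.5 times it was 211, 185, 289 and 253 without Delta28 mock replicates 1 and 3 and ABA replicates 1 and 3, and 160, 184, 220 and 1008 without K>R 3 mock replicates 2 and 3 and ABA replicates 1 and 3. The second count moved to 169 to 842. Beyond 1.5 times it was 263, 175, 207 and 169 without Delta28 mock replicates 1 and 2 and ABA replicates 2 and 3, and 374, 387, 262 and 194 without K>R 1-9 mock replicates 1 and 2 and ABA replicates 1 and 3.

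Within mock leaves 1 gene was called (0.00783%), AT2G41620, by 2.06 (SE 0.26, edgeR adjusted p = 0.0304), with 1779 genes at an unadjusted p below 0.05 (13.9%). DESeq2 called 209. The count was 2 without K>R 1-9 ABA replicate 1 and 1 without K>R 1-9 ABA replicate 3, and 0 genes were called without K>R 1-9 ABA replicate 2, K>R 3 ABA replicate 1, K>R 3 ABA replicate 2 or any single mock library. Within ABA leaves edgeR called 0 genes, with 659 at an unadjusted p below 0.05 (5.16%), and DESeq2 called 13. The edgeR count was 1 without K>R 1-9 mock replicate 2, K>R 1-9 mock replicate 3, K>R 3 mock replicate 2 or K>R 3 ABA replicate 1. With K>R 3 ABA replicate 3 left out, the counts were 195 (1.5%) in mock and 136 (1.05%) in ABA leaves. Smallest in p after ABA were ACT3, at 2.18 (SE 0.30, edgeR adjusted p = 0.0792), LCR69, a defensin-like small cysteine-rich protein, and AtIPCS1, which makes inositol phosphorylceramide, at -1.57 and -1.67 (both 0.517).

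The size of the ABA response was compared as the difference of the ABA effect between the lines. Here edgeR called 0 genes and DESeq2 0, with 444 at an unadjusted p below 0.05 (3.48%). The count was again 0 when K>R 3 ABA replicate 3 was left out, with 412 (3.17%). The smallest p was that of AT3G15650, an alpha/beta hydrolase. It was at 10, 7.82 and 15.3 CPM in K>R 3 mock and 26.5, 95.3 and 57.1 CPM in K>R 3 ABA leaves, and at 55.2, 37.7 and 73.4 CPM and 25.8, 26.8 and 54.8 CPM in K>R 1-9. It was thus higher after ABA in K>R 3 and not in K>R 1-9, by a difference of 3.07 (SE 0.65, edgeR adjusted p = 0.995). LCR69 went the other way, at -1.90 (SE 0.42, adjusted p = 0.995 in edgeR), and was not called either. 2 of the 15 called genes, AT2G41620 and ACT3, had an unadjusted p below 0.05 for this difference, with opposite signs of -0.77 and 1.02.

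Gene lists were then described by the counts and median differences of their tested members. All 17 photosystem antenna and Rubisco genes tested, which harvest light and fix carbon, had negative differences, 0 of them called with all 12 libraries. The median difference was -0.94, against 0.01 over all genes, and 13 had an unadjusted p below 0.05 (all genes: 7.16% lower at that p). DESeq2 called 6 lower (all genes: 1.71%). When K>R 3 ABA replicate 3 was left out, edgeR called 15 of 17 lower, against 4.09% of all genes, and the median was -1.52. The median was -0.96 without K>R 3 mock replicate 2. The mean log2 CPM of the list was 9.78 to 10.49 in WT mock leaves, 9.89 to 10.61 in K>R 1-9 and 8.5 to 9.4 in K>R 3. After ABA it was 8.22 to 9.01 in WT, 8.14 to 8.55 in K>R 1-9 and 6.72, 6.25 and 8.63 in K>R 3. K>R 1-9 thus overlapped WT in both treatments, and K>R 3 lay below WT except in ABA replicate 3. Delta28 gave 10.61, 9.2 and 10.16 in mock leaves and 8.98, 7.54 and 8.89 after ABA. Replicate 2 of Delta28 thus lay below WT in both treatments, in mock leaves within the range of K>R 3.

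LHCB4.1, a minor antenna protein of photosystem II, shows the pattern. In mock leaves it was at 3860, 3940 and 2680 CPM in K>R 3 and at 6840, 9100 and 7350 CPM in K>R 1-9. In ABA leaves it was at 1640, 1340 and 4630 CPM in K>R 3 and at 4470, 3630 and 4550 CPM in K>R 1-9. K>R 3 lay below K>R 1-9 in 5 libraries, whereas K>R 3 ABA replicate 3 had the highest of the ABA values. The difference was -0.94 (SE 0.29, edgeR adjusted p = 0.151) and, without that library, -1.31 (SE 0.18, adjusted p = 0.00221). LHCB2.3, an antenna protein of the same photosystem, had the smallest p of the list, at -1.83 (SE 0.42, edgeR adjusted p = 0.0929). RBCS1A, a small subunit of Rubisco, the enzyme that fixes carbon dioxide, was at 341, 146 and 208 CPM against 736, 918 and 457 CPM in mock leaves. After ABA it was at 72.4, 39.5 and 231 CPM against 248, 155 and 255 CPM, so that only replicate 3 of K>R 3 overlapped K>R 1-9. It differed by -1.27 (SE 0.38, edgeR adjusted p = 0.146). RBCS1B (-0.24) and LHCB6 (-1.02) were the 2 not called without K>R 3 ABA replicate 3. Of the 17 genes tested 10 lie on the minus strand, these 2 and RBCS1A among them. Counts of those 10 rest on reads away from their own 3′ ends.

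Glucosinolate genes, which make sulphur-rich defence compounds, had mostly positive differences (15 of 16 tested, median 0.72), and 11 had an unadjusted p below 0.05 (all genes: 8.96% higher at that p). IMS2, the same gene as MAM3, was the 1 called (all genes: 0.102% higher). DESeq2 called 4 higher (all genes: 2.22%), and edgeR called 5 higher without K>R 3 ABA replicate 3 (all genes: 3.88%). CYP79F1, the cytochrome P450 that starts aliphatic glucosinolates from lengthened methionine, was at 653, 217 and 484 CPM in K>R 3 mock leaves against 230, 148 and 218 CPM. After ABA it was at 277, 572 and 104 CPM against 156, 132 and 127 CPM. The lines overlapped in both treatments, replicate 3 of K>R 3 ABA being the lowest ABA value (difference 1.19, SE 0.34, edgeR adjusted p = 0.136). CYP79F2 differed by 1.39, BCAT4, which removes the amino group of methionine, by 1.35, and MAM1 by 0.78, none of them called with all 12 libraries. Of the regulators of the pathway, MYB29 differed by 0.55, MYB28 by 0.05 and MYB34 by -0.36.

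Heat shock genes had differences of both signs. Of 13 tested, 5 positive and 1 negative had an unadjusted p below 0.05 (all genes: 8.96% and 7.16%), and 0 were called by edgeR. DESeq2 called 5 higher and 1 lower (all genes: 2.22% and 1.71%), as did edgeR without K>R 3 ABA replicate 3 (all genes: 3.88% and 4.09%). The median was 0.26, and 0.04 without K>R 3 mock replicate 2. HSP90.1, a stress-induced chaperone, was at 252, 243 and 221 CPM in K>R 3 mock leaves and 95.2, 49 and 118 CPM in K>R 1-9. After ABA it was at 182, 204 and 67.3 CPM against 63.2, 98 and 69.1 CPM, so the lines separated in mock leaves and overlapped after ABA (difference 1.21, SE 0.27, edgeR adjusted p = 0.088). HSP101, which dissolves protein aggregates, differed by 2.02, the heat stress factor HSFA2 by 1.4, and the immunophilins ROF1 and ROF2 by 0.75 and 1.27. HSFB2A, a repressing heat shock factor, was the lower one.

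**Figure D4:**
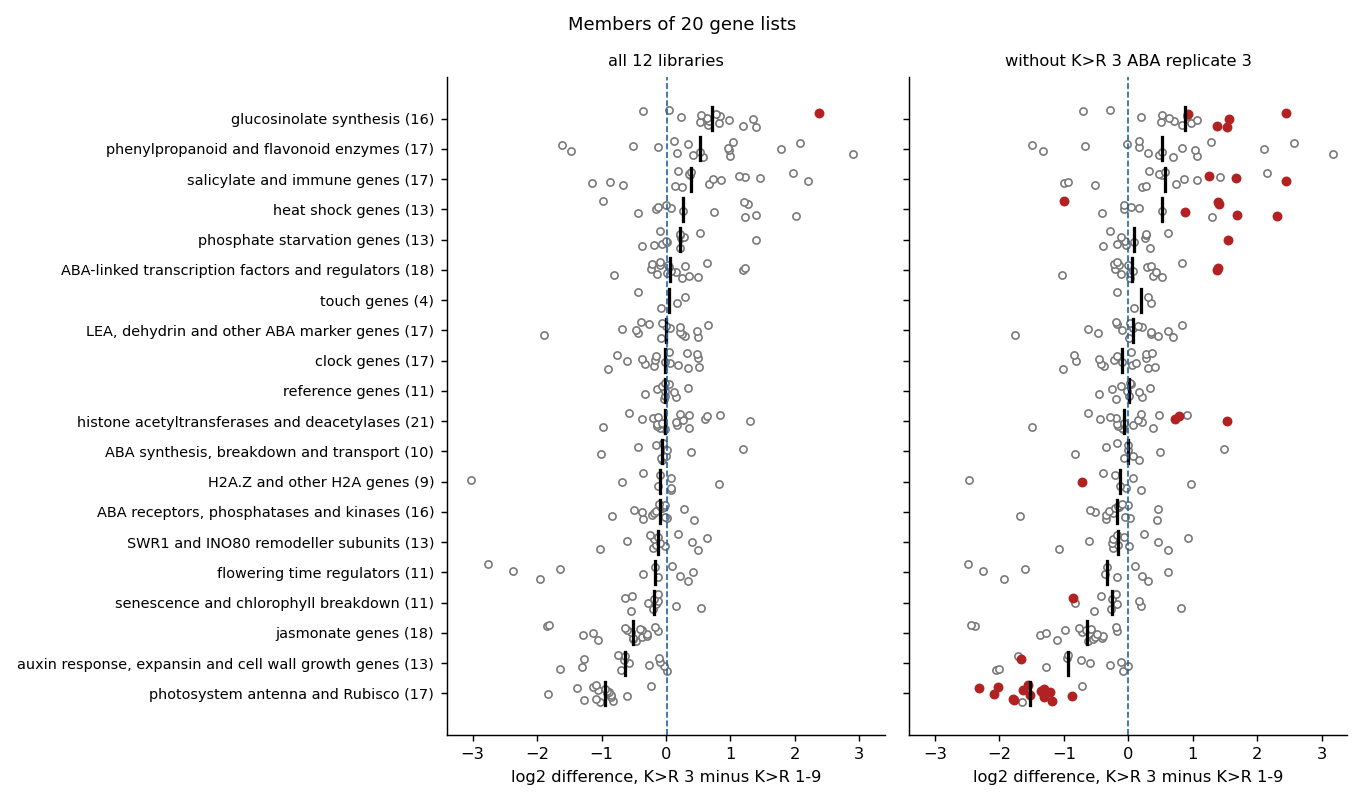
Log2 difference, K>R 3 minus K>R 1-9, of each tested member of 20 gene lists (number tested in brackets), from all 12 libraries (left) and without K>R 3 ABA replicate 3 (right). Filled red points are genes called by edgeR, black bars are list medians and the dashed line is the median of all genes; photosystem genes lie at a median of -0.94 on the left and -1.52 on the right.

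**Figure D5:**
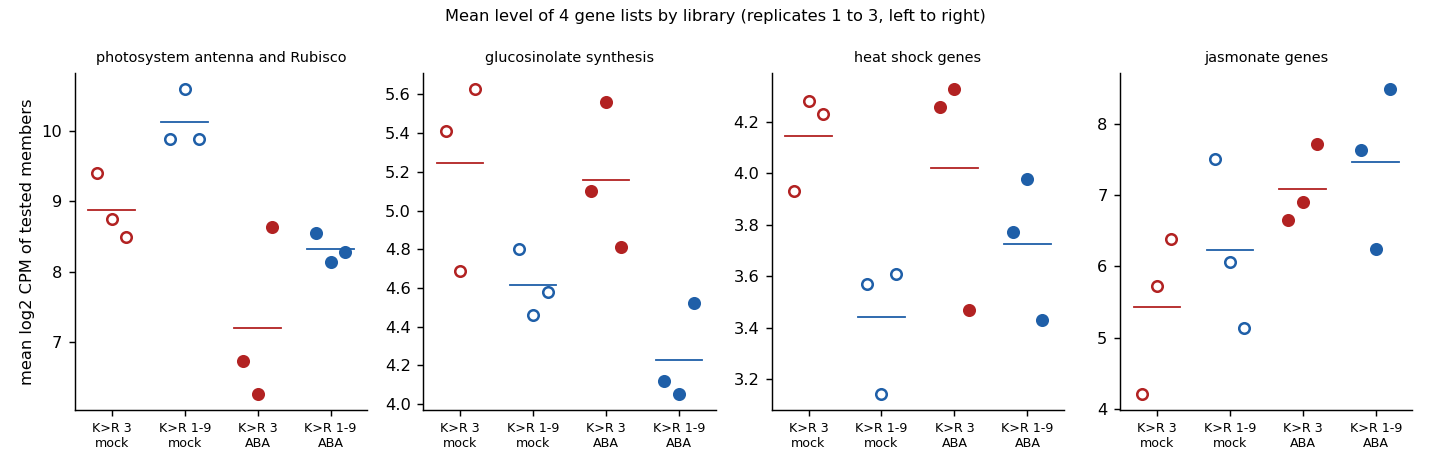
Mean log2 CPM of the tested members of 4 lists in each library, open circles for mock and filled for ABA, replicates from left to right, with bars at the mean of 3. K>R 3 ABA replicate 3 lies with K>R 1-9 in the photosystem panel, at 8.63 against 6.72 and 6.25 in the other K>R 3 ABA libraries.

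Lists for the defence hormones salicylate and jasmonate held 0 called genes with all 12 libraries. Of 17 salicylate and immune genes, 14 had a positive difference (median 0.38), 4 at an unadjusted p below 0.05 (all genes: 8.96%), and edgeR called 3 higher without K>R 3 ABA replicate 3 (all genes: 3.88%). These were EDS5, a salicylate exporter of chloroplasts, and the transcription factors WRKY54 and WRKY70. WRKY70 was at 433, 386 and 696 CPM in K>R 3 mock leaves against 122, 217 and 147 CPM, and at 787, 316 and 100 CPM against 133, 315 and 53.2 CPM after ABA. It was separate in mock leaves and overlapped after ABA (difference 1.45, SE 0.46, edgeR adjusted p = 0.161). All 18 jasmonate genes tested had a negative difference (median -0.52), but 1 alone, LOX4, a lipoxygenase, had an unadjusted p below 0.05 (all genes: 7.16%), and 0 were called, with or without K>R 3 ABA replicate 3. Their spread was wide: VSP2, a storage protein induced by jasmonate, ran from 5.27 to 1070 CPM in K>R 3 and from 137 to 1410 CPM in K>R 1-9.

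Growth genes of the auxin and expansin list had a median of -0.64, with 1 of 13 positive and 0 called. At an unadjusted p below 0.05, 3 were negative (all genes: 7.16%). EXPA1, which loosens cell walls, was at 66.1, 128 and 87.3 CPM in K>R 3 mock leaves against 252, 545 and 346 CPM in K>R 1-9. After ABA it was at 82.9, 200 and 81.6 CPM against 202, 122 and 219 CPM. The lines were separate in mock leaves and overlapped after ABA (difference -1.30, SE 0.35, edgeR adjusted p = 0.122). Without K>R 3 ABA replicate 3 the early auxin gene IAA1 was called, at -1.67 (all genes: 4.09% lower).

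Lists of the ABA pathway had medians near that of all genes. They were -0.10 for 16 receptors, phosphatases and kinases, 0.06 for 18 linked transcription factors and regulators, 0.00 for 17 LEA, dehydrin and other marker genes and -0.06 for 10 genes of ABA synthesis, breakdown and transport. None of these 61 was called with 12 libraries. At an unadjusted p below 0.05 lay the kinase OST1 (-0.49; all genes: 7.16% lower). The transcription factors WRKY60 (1.19) and MYB2 (1.22) also had such a p (all genes: 8.96% higher). The last 2 were called without K>R 3 ABA replicate 3, at 1.38 and 1.39 (all genes: 3.88% higher). KIN1, a classic ABA-induced gene, was at 59.2 to 240 CPM in K>R 3 mock leaves and 1580 to 2060 CPM after ABA, against 53.9 to 410 and 2520 to 4880 CPM in K>R 1-9. Its difference was -0.69 (SE 0.41, edgeR adjusted p = 0.438).

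No chromatin gene was called with all 12 libraries. Among 13 SWR1 and INO80 subunits, ARP4 (0.50) and PIE1 (0.41), the catalytic subunit of SWR1, had an unadjusted p below 0.05 (all genes: 8.96% higher). Of these subunits 0 were called with or without K>R 3 ABA replicate 3. Of 21 histone acetyltransferases and deacetylases, 5 had such a p, all with positive differences (all genes: 8.96%), and 3 of them, the plant HD2 type deacetylases HDT1, HDT2 and HDT3, were called without that library (all genes: 3.88% higher). HDT1 was at 219, 179 and 200 CPM in K>R 3 mock leaves against 74.7, 40.9 and 88.3 CPM, and at 93.2, 79.5 and 15.9 CPM against 36.5, 30.9 and 22.6 CPM after ABA. Replicate 3 of K>R 3 ABA was the lowest of all 12 (difference 1.3, SE 0.34, edgeR adjusted p = 0.115). Of 9 H2A genes tested, HTA11 and HTA13 had negative differences at an unadjusted p below 0.05 (all genes: 7.16%). HTA13, a gene for ordinary H2A, was not called, at -0.69 (SE 0.17, edgeR adjusted p = 0.105). Its lines did not overlap in either treatment (all genes: 0.846% lower without overlap).

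The remaining lists held 0 called genes with all 12 libraries. Medians were 0.52 for 17 phenylpropanoid and flavonoid genes, 0.21 for 13 phosphate starvation genes, -0.17 for 11 flowering time regulators, -0.18 for 11 senescence genes, -0.01 for 17 clock genes, 0.04 for 4 touch genes and -0.01 for 11 reference genes. Among them the phosphate transporter PHT1;4 differed by 1.4 (SE 0.28, edgeR adjusted p = 0.0752) and the chlorophyll b reductase NOL by -0.64. These 2 were the only members of these lists called without K>R 3 ABA replicate 3 (all genes: 3.88% higher and 4.09% lower). Of the 11 flowering time regulators, 4 were lower and 1 higher at an unadjusted p below 0.05 (all genes: 7.16% and 8.96%). Their differences ran from -2.76 to 0.42, and DESeq2 called 2 lower, AGL24 and FUL (all genes: 1.71%). AGL24, FUL and FT differed by -2.37, -1.65 and -1.95, at levels below 7 CPM in each of the 12 libraries.

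Markers of cell types were compared because leaves of the lines may hold unequal shares of cells. Summed guard cell markers ran from 762 to 1230 CPM in K>R 3 and from 818 to 1140 CPM in K>R 1-9, vascular markers from 221 to 392 and from 198 to 495 CPM, and epidermis markers from 179 to 301 and from 151 to 283 CPM. No member of these lists was called. Trichome markers summed to 110 to 221 CPM and 174 to 247 CPM, with all 5 tested members below 0 (median -0.73, 0 called). Without K>R 3 ABA replicate 3, GL2 and TRY, regulators of leaf hair cells, were called lower, at -0.56 and -1.71 (all genes: 4.09%). Floral markers were near 0, with AP1, AP3, SEP2 and CLV3 at 0 in all 12 libraries, yet SEP3 was at 0 in all 6 K>R 3 libraries and at 0.224 to 3.59 CPM in K>R 1-9. SEP3 was not called with 12 libraries (edgeR adjusted p = 0.0964). It was called with all 24 (edgeR adjusted p = 0.0392, all genes: 0.159% lower) and without K>R 3 ABA replicate 3 (0.0319, all genes: 4.09% lower). Among the 12 libraries SEP3 passed the filter through K>R 1-9 alone, so its direction was set in advance and these calls are no support. SEP1, at -1.42, was the other of 3 tested floral markers with an unadjusted p below 0.05 (all genes: 7.16% lower). Root markers summed to 13 to 48 and 22.8 to 95.5 CPM, and dividing cell markers to no more than 7.6 CPM in either line. The part of these cell types in the differences above was not tested.

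The called genes were unevenly placed along the chromosomes, a pattern noticed in these data and described without a test. When the tested genes were taken in order in 126 windows of 100, 116 held no called gene, and 9 of the 15 lay in 4 windows. Neighbouring windows of chromosome 2, from AT2G40640 to AT2G44065, held 5: AT2G41440, AT2G41620, GK-1, AT2G42710 and AT2G42910, all higher in K>R 3. In the fit of 24 libraries the same windows held 8 and 6 called genes, against a median of 1 per window. In the fit of 12 libraries they held 34 and 37 genes at an unadjusted p below 0.05, against a median of 16. The window around HTA11 held ACT3 and EP3. That around HTA9 held AT1G53870 and AT1G53890, whose nearly equal values make them little more than 1 observation. The window spanning the locus of HTA8 (AT2G38810), from AT2G37150 to AT2G39000 on chromosome 2, held 0 called genes in the fit of 12 libraries. Whether the lines differ in DNA at these places was not tested.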

How the data were processed

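RNA from leaves was sequenced from the 3′ end (QuantSeq FWD, about 100 mg of leaf and 500 ng of RNA, per the labels' protocols). Trim Galore, STAR and RSEM are named in the submitters' processing notes; for their versions and the genome build: not given in the sources used here. The authors deposited RSEM expected counts per gene, which were rounded to whole numbers here. The gene models in the deposited files lack the exon with the lowest coordinates, so counts on minus-strand genes rest on a minority of reads.

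K>R 3 and K>R 1-9 libraries (6 each) were compared with edgeR 4.0.16 (R 4.3.3): TMM scaling, filterByExpr, glmQLFit and glmQLFTest with line and treatment as terms, and Benjamini-Hochberg adjustment. Line and treatment groups with their interaction gave the values within mock, within ABA and for the ABA response. CPM levels use TMM factors of all 24 libraries. HTA11 was also tested by an exact permutation of lines within treatment. The code was checked on simulated counts with the same spread for every gene and no library standing apart. That check says nothing on how stable the calls are in these data.

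Alternatives were DESeq2 1.42.0, RLE scaling, no filter, a stricter filter, all 24 libraries in 1 fit, plus-strand genes only, the replicate number as a block and each library left out. The members and lists were chosen with earlier results of these data known, and 3 alternatives were added after seeing the data: the mean of the mock and ABA differences, and DESeq2 and the fit of 24 libraries without K>R 3 mock replicate 2. Genes were named by rule: the H2A.Z genes; up to 12 called genes per direction, by size of difference, with at least 5 CPM in the higher line and lines separate within both treatments; up to 5 per direction in the other comparisons; the 5 smallest p where fewer than 5 were called; and from each list the called members or the 2 smallest p. DAR7, LHCB4.1, CYP79F1, WRKY70 and further list members lie outside the rule and were chosen after their values were seen. Sequence and gene names came from RefSeq on TAIR10.1. Pairs of replicates differed by more than sampling noise, so none was a repeated library.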

Additional observations from a re-analysis of the deposited data

How the results depend on the processing

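Counts of called genes depended on the processing more than the direction of single genes did. Over both treatments edgeR's 15 calls (13 higher, 2 lower) became 510 with DESeq2 (288 and 222), 24 with no filter (20 and 4), 110 with all 24 libraries (88 and 22) and 32 with plus-strand genes alone (25 and 7). RLE scaling gave 4 lower. Added after seeing the data, the fit of 24 libraries without K>R 3 mock replicate 2 gave 49 (40 and 9) and DESeq2 without it 306 (189 and 117). Leaving out each library gave 2 to 1036, with 2 to 504 higher and 0 to 532 lower. In mock leaves DESeq2 gave 209, 24 libraries 21, plus-strand genes alone 0 and the left-out libraries 0 to 195. In ABA leaves DESeq2 gave 13, no filter 1 and the left-out libraries 0 to 136. For the difference in ABA response the left-out libraries gave 0 to 1. The differences from Delta28 ran from 160 to 1008 (K>R 3) and 169 to 842 (K>R 1-9), and the permutation p of HTA11 from 0.02 to 0.035. Without K>R 3 mock replicate 2 that p was 0.005, the smallest the permutation can give. That library was left out for its HTA11 level, so the value is no test of HTA11. The cause of these shifts was not tested.

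With the replicate number as a block, 2 genes were called over both treatments (2 higher, 0 lower), AT2G41620 and Cpn60beta2, and 0 in mock leaves. Libraries of the same number did not deviate together (r from -0.18 to 0.20, median -0.06, over 18 pairs of libraries), so the numbers are taken to mark no pairing. Of the settings tried for single named genes, 978 kept direction and side of the threshold, 134 lost the call, 50 gained one and 1 changed sign: LEA7, at -1.89 with all libraries and, with 1 library left out, from -2.48 to 0.03, the latter without K>R 1-9 mock replicate 1. Genes near 1 CPM rest on few reads, and HTA8 could not be measured.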
